A study of Mus musculus with 6 samples.

Results

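A set of 116 genes was close to silent in differentiating C2C12 cells with a scrambled hairpin and was on in cells with a hairpin against the Pkm1 isoform of pyruvate kinase. C2C12 is an immortalized mouse myoblast line that leaves the cell cycle and fuses into myotubes when serum is reduced. RNA was sequenced in 6 libraries, all harvested at 48 h of differentiation. The control group (shScr) stably carried the non-targeting scrambled hairpin, the shPkm1 group a hairpin aimed at the Pkm1 isoform and the shPkm2 group one aimed at the Pkm2 isoform, with 2 libraries per group. Nothing in the labels says whether the libraries of a group came from separate cultures, or whether a line was a pool of cells or 1 clone, so p-values measure only the spread between these libraries. The genes were chosen by their level in TPM (transcript level scaled to transcript length and to the library's total), summed over the transcripts of a gene and averaged over the libraries of a group. A gene had to lie under 0.5 TPM in shScr, here called silent, and at 2 TPM or more in shPkm1, here called on. Both limits were met by 117 of 17558 genes, and 1 of them, Sfrp1, was left out by name, as Abcg1 and protocadherin genes would have been. The 116 make up 1.98% of the 5850 genes silent in shScr and 1.08% of the 10781 genes on in shPkm1. The reverse pattern, on in shScr and silent in shPkm1, was held by 32 genes.

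Pyruvate kinase makes pyruvate in the last step of glycolysis, and its Pkm transcript is spliced to carry either the exon of the Pkm1 isoform, typical of adult muscle, or that of the Pkm2 isoform, typical of proliferating cells. A differentiating myoblast normally turns on muscle genes under Myod1 and Myog and keeps genes of other lineages low. A gene near the limit of detection gives few reads, so whether it counts as silent or on depends on the limit used. In bulk RNA, fewer cells of a type and less RNA per cell cannot be told apart.

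Depth lay between 18216896 and 19796036 estimated counts per library, and the libraries of a group correlated at r = 0.988 to 0.994 across genes on log2 CPM (counts scaled to library size). The Pkm1 isoform stood at 546 and 589 TPM in shScr, 243 and 218 in shPkm1 and 254.1 and 254.2 in the libraries labelled shPkm2. The Pkm2 isoform stood at 1073 and 1517 TPM in shScr, 1278 and 1379 in shPkm1 and 2700 and 2630 in the libraries labelled shPkm2. No fall of the targeted isoform was thus seen in that group, which is called by its label throughout. Muscle markers (13 genes) summed to 27323 to 38423 TPM in shScr, 14017 to 14954 in shPkm1 and 1089 to 1162 in the libraries labelled shPkm2. Of 12 tested, 11 were lower than in shScr in each of these groups (median log2 -1.54 and -7.37), beside 31.4% and 34.2% of all tested genes. Myog, a factor that starts muscle differentiation, stood at 2126 and 2051, 1430 and 1437, and 67.2 and 73.5 TPM.

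The promoters of 4 genes are shown because they stand at the ends of the pattern. Ltc4s and Cdhr1 had the highest shPkm1 levels, and Nr4a2 and Lrp8 had the highest levels in the libraries labelled shPkm2 among genes with a promoter window in the reference. Each line gives the 250 bases before the transcript start, 5′ to 3′ on the strand of the gene, from RefSeq on GRCm38.p6, with every CG dinucleotide in capitals. Where the reference lists several starts for a gene the first listed is used, and that of Lrp8 lies inside the span annotated for the gene. They lie at chr11:50238533-50238782 (minus strand), chr14:37098348-37098597 (minus), chr2:57124004-57124253 (minus) and chr4:107802635-107802884 (plus).
Ltc4s: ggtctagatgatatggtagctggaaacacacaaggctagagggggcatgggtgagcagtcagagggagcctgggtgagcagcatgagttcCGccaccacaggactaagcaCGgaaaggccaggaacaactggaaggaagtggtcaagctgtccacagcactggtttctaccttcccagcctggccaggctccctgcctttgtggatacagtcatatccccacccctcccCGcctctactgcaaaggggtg
Cdhr1: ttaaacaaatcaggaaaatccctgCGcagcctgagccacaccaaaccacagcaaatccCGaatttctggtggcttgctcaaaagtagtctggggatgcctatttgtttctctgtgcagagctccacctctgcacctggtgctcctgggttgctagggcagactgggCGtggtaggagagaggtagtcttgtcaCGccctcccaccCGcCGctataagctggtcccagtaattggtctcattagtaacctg
Nr4a2: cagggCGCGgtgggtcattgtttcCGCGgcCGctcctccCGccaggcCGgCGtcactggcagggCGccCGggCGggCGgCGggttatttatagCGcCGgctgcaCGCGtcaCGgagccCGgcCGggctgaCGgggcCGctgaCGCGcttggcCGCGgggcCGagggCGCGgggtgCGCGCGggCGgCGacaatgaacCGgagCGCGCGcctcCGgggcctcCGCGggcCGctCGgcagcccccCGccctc
Lrp8: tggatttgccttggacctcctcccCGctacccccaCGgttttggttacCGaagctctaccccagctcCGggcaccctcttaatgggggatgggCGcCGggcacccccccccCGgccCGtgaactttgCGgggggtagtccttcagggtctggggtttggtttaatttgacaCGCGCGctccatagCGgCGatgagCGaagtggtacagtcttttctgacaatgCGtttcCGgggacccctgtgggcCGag
CG dinucleotides number 3 in the Ltc4s window and 6 in that of Cdhr1, beside a median of 6 over all 27025 windows. The Nr4a2 window holds 44, a number reached by 0.544% of all windows, and the Lrp8 window 18, reached by 21.6%. A search on both strands for TATAAA, the muscle E-box letters CAGCTG, the AP-1 letters TGACTCA and the cAMP response letters TGACGTCA found TATAAA in the Nr4a2 window and none of them in the other windows. Over the same 250 bases of all windows these letters occur in 13.0%, 12.8%, 4.43% and 1.62%. RefSeq windows were given for 87 of the 116 genes (75.0%), under the 80% required here, so no count over the set is given.

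Most of the genes were not on in the libraries labelled shPkm2. There, 18 of 116 (15.5%) reached 2 TPM, 30 lay between 0.5 and 2 TPM and 68 stayed under 0.5 TPM. Without shScr replicate 2 the set became 140 genes (108 of the 116 kept) with 28 on, 17 of them among the 18, and by replicate 1 of each group alone 31 were on. The number on was 9 when every library had to pass its limit, 4 with the same limits in FPKM (scaled to gene length and depth), 6 in CPM (scaled to depth alone), 1 with a control limit of 0.25 TPM and 0 with an on limit of 5 TPM, each over the set that the changed rule gives. Among the other 5733 genes silent in shScr, 47 (0.820%) reached 2 TPM in these libraries. Most of those genes were also far from 2 TPM in shPkm1, and of the 180 that reached 1 to 2 TPM there, 10.6% were on in the libraries labelled shPkm2. Seen from the other side, 65 genes silent in shScr were on with the shPkm2 label, and 18 of them (27.7%) belong to the set. The median gene of the set went from 0.27 TPM in shScr to 3.24 in shPkm1, and stood at 0.36 in the libraries labelled shPkm2. In 60 genes the level there was under 10% of that in shPkm1, and in 11 genes it was above the shPkm1 mean.

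**Figure D1:**
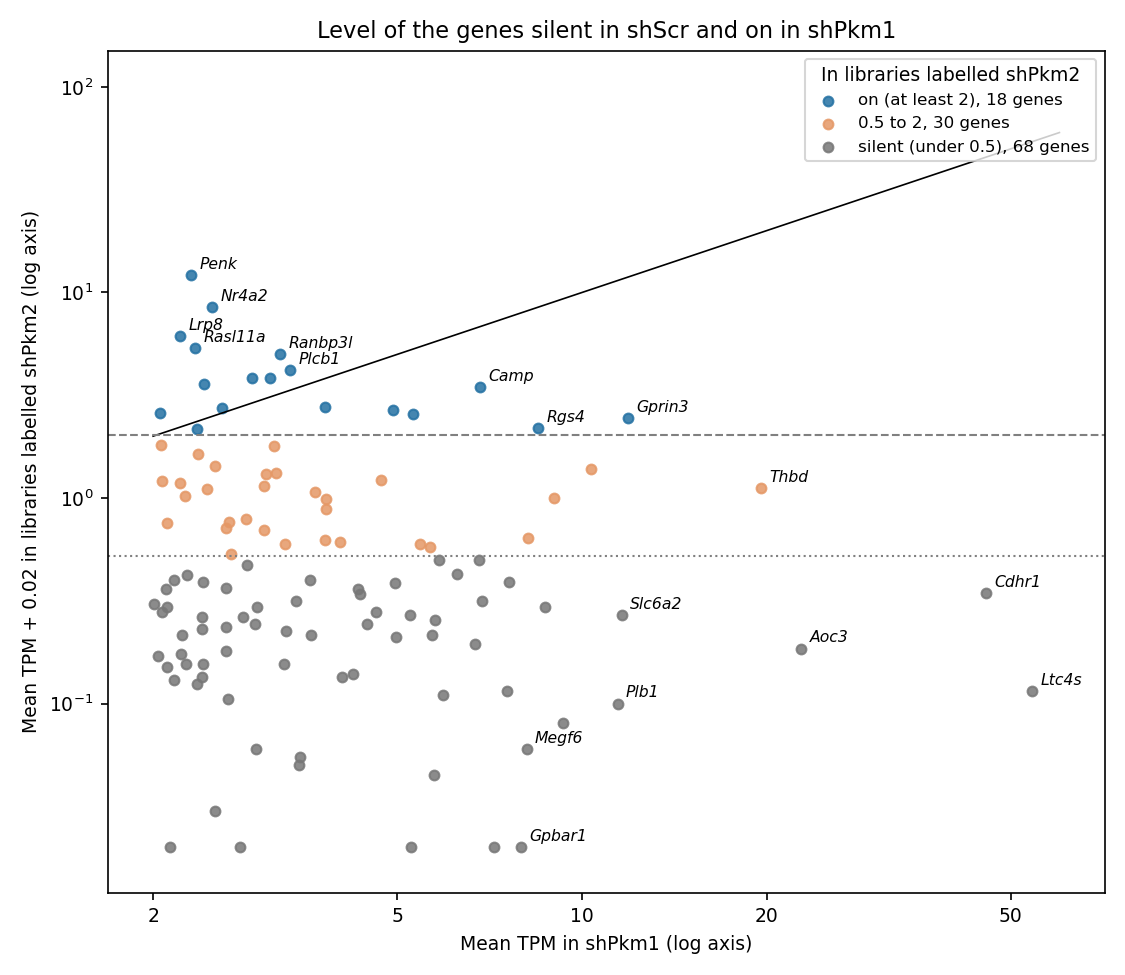
Mean TPM of each of the 116 genes in shPkm1 (horizontal, log axis) and, with 0.02 added, in the libraries labelled shPkm2 (vertical, log axis); each point is 1 gene, the solid line marks equal levels, the dashed and dotted lines the limits of 2 and 0.5 TPM. The 18 blue genes are on in both, 68 grey genes are under 0.5 TPM with the shPkm2 label, and the genes highest in shPkm1 (Ltc4s, Cdhr1, Aoc3) lie in the lower right.

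All genes of the set but Apoc1 (2 counts in shScr, 17 in shPkm1 and 3 with the shPkm2 label) were tested across the whole table with edgeR. The 115 tested had to be higher in shPkm1 than in shScr by the way they were chosen, and all 115 were called so at an adjusted p under 0.05, beside 31.8% of the 12643 genes tested. They passed the filter on low counts through shPkm1, where they are high. Against shScr, 41 of 115 (35.7%) were called higher with the shPkm2 label, beside 33.9% of all tested genes, and 14 (12.2%) were called lower, beside 34.2%. When only these 4 libraries were fitted, 62 of the genes passed the filter, and 37 were called higher and 6 lower. The share of tested genes called higher thus depends on which libraries let a gene pass the filter, and nothing is read from it. Against shPkm1, 99 of 115 were called lower with the shPkm2 label, beside 27.3% of all tested genes, and 6 were called higher, beside 25.7%. These comparisons share the shScr or the shPkm1 libraries with the rule, which took genes low in the former and high in the latter.

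By state, all 18 genes on with the shPkm2 label were called higher there than in shScr. Of the 30 between the limits 18 were called higher and 12 were not called. Of 67 tested genes that were silent, 5 were called higher, 14 lower and 48 neither. Over all tested genes 33.9% were called higher and 34.2% lower. The states are cut from the same levels that these calls compare, so the counts by state are a description only. Among the 18 the shScr level ran from 0.05 to 0.48 TPM with a median of 0.39, and 1 of them, Ranbp3l, lay under 0.25 TPM. Among the 68 silent genes the shScr median was 0.21 TPM, and 40 lay under 0.25 TPM. TPM values of both libraries labelled shPkm2 lay above both shScr values in 66 genes, beside 61.5% of tested genes, and below both in 15, beside 22.5%. They lay below both shPkm1 values in 102 genes, beside 34.5%, and above both in 10, beside 43.2%. TPM is a share of each library, whereas the scaling in edgeR allows for a change in composition, and the shares of all genes counted by each method differ.

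The highest levels in shPkm1 belonged to an enzyme and an adhesion protein. Ltc4s, leukotriene C4 synthase, joins leukotriene A4 to glutathione and lies on chromosome 11 at 50236461 to 50238532 (GRCm38). It had 0.41 and 0.35 TPM in shScr, 49.6 and 58.7 in shPkm1, and 0.19 and 0 in the libraries labelled shPkm2. Both shPkm1 libraries stood far above the other 4, which rest on 6 counts in all. The ratio of the shPkm2-labelled to the shPkm1 libraries was 0.00133, with a 95% counting interval of 3.36e-05 to 0.00744. Cdhr1, a cadherin-related protein known from photoreceptor outer segments (chromosome 14, 37077849 to 37098347), had 0.10 and 0.12 TPM in shScr, 47.8 and 43.2 in shPkm1 and 0.32 and 0.33 in the libraries labelled shPkm2. Its shPkm2-labelled values did not overlap those of shScr, and in edgeR they were 1.15 higher on the log2 scale (SE 0.38, adjusted p 0.0247). This call was lost when any shScr or shPkm2-labelled library was left out (adjusted p 0.0514 to 0.0865), while the difference stayed at 1.09 to 1.20 on the log2 scale. Against shPkm1 the difference of Cdhr1 with the shPkm2 label was -7.18 on the log2 scale (SE 0.15).

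Enzymes and binding proteins for lipids and other small molecules formed a group of 16, of which 1 was on, 6 lay between the limits and 9 were silent with the shPkm2 label. Aoc3, a surface amine oxidase known from vessels and fat (chromosome 11, 101330606 to 101339430), had 0.11 and 0.06 TPM in shScr, 22.7 and 22.9 in shPkm1 and 0.15 and 0.18 in the libraries labelled shPkm2. Plb1, a phospholipase, had 0.35 and 0.63, then 13.3 and 9.62, then 0 and 0.16 TPM, in the same order of groups. The shPkm2-labelled values of Aoc3 lay just above the shScr values and those of Plb1 below them. Plb1, at 12 counts in shScr, was called lower than there (edgeR adjusted p 0.0138), a call lost without shScr replicate 2 (log2 -2.27, adjusted p 0.0776) or without replicate 1 labelled shPkm2 (-1.83, adjusted p 0.0986).

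Several of these enzymes act on retinoids, eicosanoids or foreign compounds. Crabp1, which binds retinoic acid in the cytoplasm, had 0 and 0.27 TPM in shScr, 9.21 and 9.44 in shPkm1 and 0.12 and 0 with the shPkm2 label. Both shPkm1 libraries stood far above the other 4. The retinol and retinal dehydrogenases Dhrs9 and Rdh12 reached means of 3.03 and 2.66 TPM in shPkm1 and 1.13 and 0.75 with the shPkm2 label. Rdh12 overlapped between shScr (0.21 and 0.78 TPM) and the shPkm2-labelled libraries (0.46 and 1.03). Hpgd, which inactivates prostaglandins, rose with both labels, to 4.63 and 4.76 TPM in shPkm1 and 1.21 in each library labelled shPkm2 (log2 2.32 over shScr, SE 0.47, edgeR adjusted p 0.000708). The cytochrome P450 gene Cyp2f2 had 5.82 and 5.64 TPM in shPkm1 but 0.05 and 0 with the shPkm2 label, below 0.37 and 0.28 in shScr, at 14 counts or fewer in each of the last 2 groups. Cyp2j6, another P450 gene, reached 1.64 and 1.60 TPM with that label, and 2.64 and 2.10 in shPkm1. Akr1c14, an aldo-keto reductase of steroids, reached 1.41 and 1.21 TPM with the shPkm2 label and was called higher than in shScr (log2 2.07, SE 0.42, edgeR adjusted p 0.000618).

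The remaining enzymes were low with the shPkm2 label, Gcnt4 excepted. Car6, a secreted carbonic anhydrase, had 0.50 and 0.44 TPM in shScr, 9.56 and 7.87 in shPkm1 and 0.35 and 0.20 with the shPkm2 label. Entpd2, which splits extracellular ATP, averaged 7.55 TPM in shPkm1, the thioesterase Acot1 5.86, the carboxylesterase Ces2g 5.77 and the peptidylarginine deiminase Padi3 3.81. Their means with the shPkm2 label were 0.10, 0.48, 0.24 and 0.61 TPM. Entpd2 shares 612 exon bases on its own strand with Npdc1, so its reads may be divided between them. The estimated counts of Acot1 were not whole (188.3 over the shPkm1 libraries), so part of its reads may be shared with other genes. Gcnt4, a transferase that branches O-linked sugars, was the enzyme that was on with both labels, at 2.12 and 1.99 TPM in shPkm1 and 2.63 and 2.50 with the shPkm2 label. The latter lay above the former in every library, but the difference was not called (log2 0.25, SE 0.21, edgeR adjusted p 0.355).

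Secreted signals and decoy receptors numbered 10, with 1 on, 5 between the limits and 4 silent in the libraries labelled shPkm2. Penk, the precursor of enkephalin opioid peptides (chromosome 4, 4133536 to 4138815), had 0.24 and 0.61 TPM in shScr, 1.85 and 2.76 in shPkm1 and 12.7 and 11.6 with the shPkm2 label, the highest level of any of the 116 there. The 3 groups did not overlap, and the shPkm2-labelled libraries stood above shPkm1 by 2.34 on the log2 scale (SE 0.25, edgeR adjusted p 4.52e-06). Fgf10, a mesenchymal growth factor, had 0.09 and 0.11 TPM in shScr, 4.83 and 3.24 in shPkm1 and 0.50 and 0.68 with the shPkm2 label. Ereg, a ligand of the EGF receptor, had 0.18 and 0.28, 2.48 and 1.64, and 1.82 and 1.75 TPM in the same order. Its shPkm1 and shPkm2-labelled values overlapped and were not called different (log2 -0.26, SE 0.23, edgeR adjusted p 0.368).

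Other signals differed in how far they followed the shPkm2 label. Pthlh, a peptide related to parathyroid hormone, Tnfsf13, a TNF family ligand of B cells, and Sema6d, a membrane semaphorin, had means of 1.20, 1.17 and 0.74 TPM there and 2.07, 2.21 and 2.11 in shPkm1. Tnfsf13 shares 983 exon bases on its own strand with Tnfsfm13, so its reads may be divided between them. The vasodilator peptide Adm, the growth factor Clec11a and the calcium-regulating hormone Stc1 averaged 3.47, 5.27 and 3.62 TPM in shPkm1 and 0.04, 0 and 0.20 with the shPkm2 label. Clec11a had 214 counts over the shPkm1 libraries and 0 with the shPkm2 label, at least 78.1-fold lower when the floor of 3 counts over the group is used. Tnfrsf11b, the decoy receptor osteoprotegerin, had 2.57 and 2.24 TPM in shPkm1 and 0.30 and 0.19 with the shPkm2 label, where it overlapped shScr (0.09 and 0.24).

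Matrix and matrix-associated proteins numbered 11, and none was on with the shPkm2 label. Col11a1, a chain of cartilage collagen fibrils, had 0.20 and 0.35 TPM in shScr, 9.07 and 8.93 in shPkm1 and 1.08 and 0.89 with the shPkm2 label. The 3 groups were separate, and the shPkm2-labelled level was called higher than shScr (log2 1.55, SE 0.21, edgeR adjusted p 2.54e-05). Megf6, a protein of EGF-like repeats, had 0.03 and 0.08 TPM in shScr, 7.82 and 8.43 in shPkm1 and 0.01 and 0.07 with the shPkm2 label. Clec3b, the plasminogen-binding protein tetranectin, had 0 and 0.09, 7.11 and 7.29, and 0 and 0 TPM, at least 52.2-fold lower with the shPkm2 label than in shPkm1. Both genes overlapped shScr in the shPkm2-labelled libraries.

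Within this group Svep1, a large adhesion protein, came nearest to being on with the shPkm2 label, at 1.96 and 1.60 TPM beside 3.19 and 3.10 in shPkm1 and 0.36 and 0.44 in shScr (log2 1.71 over shScr, SE 0.17, edgeR adjusted p 9.88e-07). Col14a1, a collagen that sits on fibrils, averaged 6.87 TPM in shPkm1 and 0.30 with the shPkm2 label, and the microfibril protein Mfap2 5.45 and 0.58. Dpt, dermatopontin, averaged 5.70 and 0.20 TPM, the basement membrane protein Smoc1 4.46 and 0.23, the cartilage protein Ucma 4.35 and 0.32 and the integrin-like Itgbl1 3.27 and 0.14. Smoc1 was called lower than in shScr with the shPkm2 label (log2 -1.55, SE 0.37, edgeR adjusted p 0.00212). Sparcl1, a relative of osteonectin, had 16 and 4 counts in the shScr libraries, 80 and 99 in shPkm1 and 0 and 0 with the shPkm2 label. It was at least 8.40-fold lower there than in shScr and at least 65.3-fold lower than in shPkm1.

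Surface receptors outside the G protein-coupled family numbered 7, and a pair of them moved apart. Vldlr and Lrp8 are related lipoprotein receptors that both bind the guidance protein Reelin. Vldlr had 0.31 and 0.42 TPM in shScr, 6.94 and 6.47 in shPkm1 and 0.24 and 0.11 with the shPkm2 label. Lrp8 (chromosome 4, 107802200 to 107876840) had 0.44 and 0.48 TPM in shScr, 2.31 and 2.12 in shPkm1 and 6.49 and 5.74 with the shPkm2 label. With that label Vldlr was thus below shScr in both libraries and Lrp8 was above shPkm1 in both. Against shScr the shPkm2-labelled libraries were lower by log2 -2.14 in Vldlr (SE 0.35, edgeR adjusted p 0.000107), and higher by 3.29 in Lrp8 (SE 0.16, edgeR adjusted p 8.77e-10). Lrp8 stood above shPkm1 by 1.41 (SE 0.13, edgeR adjusted p 8.98e-07).

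Thbd, thrombomodulin, the thrombin receptor of vessel walls, had 0.33 and 0.31 TPM in shScr, 19.7 and 19.4 in shPkm1 and 1.14 and 1.05 with the shPkm2 label. The 3 groups were separate, and the shPkm2-labelled level was called higher than shScr (log2 1.29, SE 0.25, edgeR adjusted p 0.000492). Tril, a co-receptor of Toll-like receptors, averaged 5.94 TPM in shPkm1 and 0.09 with the shPkm2 label, and Pla2r1, the phospholipase A2 receptor, 2.68 and 0.52. Itga1, the alpha subunit of a collagen-binding integrin, averaged 2.36 and 0.11 TPM, and Il1rl1, the interleukin 33 receptor, 2.04 and 0.15. Itga1 was called lower than in shScr (log2 -1.09, edgeR adjusted p 0.0404), a call lost when any 1 of 5 libraries was left out, shScr replicate 1 being the exception (log2 -0.77 and adjusted p 0.276 without shScr replicate 2).

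The G protein-coupled receptors numbered 6, with 1 on, 2 between the limits and 3 silent with the shPkm2 label. Gpbar1, the bile acid receptor of the cell surface, had 0.44 and 0.36 TPM in shScr, 8.50 and 7.40 in shPkm1 and 0 and 0 with the shPkm2 label. Its 157 counts in shPkm1 against 0 make it at least 57.3-fold lower with the shPkm2 label. In shScr it had 9 counts over both libraries, so its level there is itself near the floor. The prostaglandin receptors Ptgfr, for prostaglandin F2α, and Ptger1, for prostaglandin E2, were both raised with the shPkm2 label. Ptgfr had 0.19 and 0.40 TPM in shScr, 5.37 and 4.47 in shPkm1 and 2.79 and 2.54 with that label, and Ptger1 0.26 and 0.35, 3.42 and 3.93, and 0.60 and 1.5. For Ptgfr the log2 difference from shScr was 2.74 (SE 0.26, edgeR adjusted p 8.48e-07). Ptger1 is among the genes that share exon bases with another gene, so its values are uncertain without stranded counting.

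Lpar3, a lysophosphatidic acid receptor, averaged 3.83 TPM in shPkm1 and 0.86 with the shPkm2 label, and Mchr1, a melanin-concentrating hormone receptor, 3.42 and 0.30. Adgrg2, an adhesion receptor known from the male tract, had 3 and 2 counts in shScr, 126 and 87 in shPkm1 and 0 and 0 with the shPkm2 label, at least 77.7-fold lower than in shPkm1. On a list of 40 genes of receptor signalling through G proteins, 23 were tested, with 13 higher and 6 lower in shPkm1 than in shScr, beside 31.8% and 31.4% of all tested genes (median log2 0.77, beside 0). With the shPkm2 label 6 were higher and 9 lower than in shScr, beside 33.9% and 34.2%. Ptgfr is on that list. Galr2, a galanin receptor, had 0.17 and 0.13 TPM in shScr and 1.73 and 1.32 in shPkm1.

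Cell junction and adhesion proteins numbered 4: Cdhr1, the connexins Gjb5 and Gja5, and Ppl, a plakin of desmosomes. Gjb5 had 0.25 and 0.30 TPM in shScr, 7.97 and 8.36 in shPkm1 and 0.55 and 0.69 with the shPkm2 label, a difference from shScr that was not called (log2 0.72, SE 0.46, edgeR adjusted p 0.197). It was called with limma on log2(TPM + 0.5) and log2(TPM + 0.1) (adjusted p 0.01245 and 0.004292). Gja5 averaged 3.46 TPM in shPkm1 and 0.03 with the shPkm2 label, and Ppl 2.94 and 0.04. On a list of 37 cadherins outside the protocadherin clusters, which holds Cdhr1, 14 were tested, with 5 higher and 3 lower in shPkm1 than in shScr (median log2 -0.04) and 6 higher and 4 lower with the shPkm2 label, beside 31.8% and 31.4%, and 33.9% and 34.2%, of all tested genes. Fat4 went from 0.61 and 0.94 TPM to 4 and 3.82, Cdh11 from 6.74 and 6.10 to 22.9 and 19.9, and Cdh2 from 57.9 and 70.1 to 49.8 and 46.1 (log2 -0.80).

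Transporters, channels and their subunits numbered 10, and 8 of them were silent with the shPkm2 label. Slc6a2, the noradrenaline transporter, had 0.20 and 0.26 TPM in shScr, 11.67 and 11.55 in shPkm1 and 0.25 and 0.25 with the shPkm2 label. Slc16a11, of the monocarboxylate transporter family, had 0.34 and 0.23, 11.02 and 9.68, and 1.42 and 1.30 TPM. Slc1a6, a glutamate transporter known from the cerebellum, had 0.36 and 0.26, 2.91 and 3.30, and 4.05 and 3.59 TPM, and was on with both labels. The last pair of groups did not overlap for Slc1a6, but the difference was not called (log2 0.22, SE 0.23, edgeR adjusted p 0.435). With the shPkm2 label Slc6a2 thus lay within its shScr range, Slc16a11 between the other groups and Slc1a6 above shPkm1 in both libraries.

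The proline transporter Slc6a7, the inositol transporter Slc2a13 and the lipocalin receptor Slc22a17 averaged 2.63, 2.63 and 2.23 TPM in shPkm1 and 0.16, 0.22 and 0.20 with the shPkm2 label. The calcium-activated chloride channel Ano1, the T-type calcium channel Cacna1g, the potassium channel subunit Kcnab2 and Pex5l, which binds pacemaker channels, lay between 2.10 and 2.63 TPM in shPkm1 and between 0.12 and 0.35 with the shPkm2 label. None of these 7 was called different between shScr and the shPkm2-labelled libraries. On a list of 43 voltage-gated channels, which holds Cacna1g, 20 were tested, with 5 higher and 10 lower in shPkm1 than in shScr (median log2 -0.13) and 3 higher and 10 lower with the shPkm2 label, beside the same shares of all tested genes as for the cadherins.

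Intracellular signalling proteins numbered 17, and 6 of them were on with the shPkm2 label. Gprin3, a partner of G protein alpha subunits, had 0.32 and 0.27 TPM in shScr, 12.99 and 10.74 in shPkm1 and 2.93 and 1.94 with the shPkm2 label. Rgs4, which ends G protein signals, had 0.17 and 0.51, 9.42 and 7.54, and 2.14 and 2.21 TPM. For both, the 3 groups were separate and the level with the shPkm2 label lay between the other 2. Syk, a tyrosine kinase of immune receptors, followed the same order with means of 0.28, 5.31 and 2.54 TPM. Plcb1, phospholipase C beta 1, had 0.37 and 0.45 TPM in shScr, 3.63 and 3.06 in shPkm1 and 4.42 and 3.94 with the shPkm2 label, and the difference between the last pair was not called (log2 0.26, SE 0.13, edgeR adjusted p 0.116).

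Rasl11a, a small GTPase of the Ras family, had 0.39 and 0.55 TPM in shScr, 2.59 and 2.09 in shPkm1 and 5.25 and 5.43 with the shPkm2 label. It was higher with the shPkm2 label than in shPkm1 (log2 1.13, SE 0.28, edgeR adjusted p 0.00386), and without shPkm1 replicate 2 the difference was 1.01 with an adjusted p of 0.0571. Chml, a Rab escort protein, had means of 0.48, 2.59 and 2.72 TPM and shares 461 exon bases on its own strand with Opn3, so its reads may be divided between them. Silent with the shPkm2 label were Elmo1, an activator of small GTPase signalling, the small GTPase Rhof and Ripk3, the kinase of necroptosis. Ripk3 averaged 5.24 TPM in shPkm1 and 0.25 with the shPkm2 label, Elmo1 4.98 and 0.19 and Rhof 2.85 and 0.45. Sh3rf3, Akip1, Fam83a, Guca1a and Sgsm1 were silent as well, with shPkm1 means of 2.28 to 4.96 TPM, and Sncaip, synphilin 1, lay between the limits at 1.09.

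Transcription, DNA repair and nuclear transport held 10 genes, of which 5 were on, 1 lay between the limits and 4 were silent with the shPkm2 label. Nr4a2, an orphan nuclear receptor and immediate early gene (chromosome 2, 57106830 to 57124003), had 0.30 and 0.61 TPM in shScr, 2.60 and 2.39 in shPkm1 and 9.05 and 7.90 with the shPkm2 label. The 3 groups were separate, and the shPkm2-labelled level stood above shPkm1 by 1.69 on the log2 scale (SE 0.18, edgeR adjusted p 4.56e-06). Ranbp3l, which exports phosphorylated Smad proteins from the nucleus, had 0.04 and 0.06 TPM in shScr, 3.43 and 3.01 in shPkm1 and 5.36 and 4.59 with the shPkm2 label. It was the gene on with both labels that was lowest in the control, with 5 counts over the shScr libraries, and stood 6.14 above shScr on the log2 scale with the shPkm2 label (SE 0.31, edgeR adjusted p 1.42e-09). Brca2, of homologous recombination, had 0.40 and 0.38, 2.67 and 2.18, and 3.78 and 3.35 TPM. For Ranbp3l and Brca2 the excess over shPkm1 was 0.56 and 0.48 on the log2 scale (edgeR adjusted p 0.00872 and 0.00810), and it was not called without shPkm1 replicate 2 (adjusted p 0.0736 and 0.0993) or without replicate 1 labelled shPkm2 (adjusted p 0.113 and 0.0977).

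Lhx9, a LIM homeobox factor, averaged 0.39 TPM in shScr, 3.81 in shPkm1 and 2.76 with the shPkm2 label, and Ints6l, of the Integrator family, 0.43, 2.36 and 2.16. Lmo1, a LIM-only co-regulator, had 0 counts in both shScr libraries, the one gene of the set with that property, and 46 and 50 in shPkm1. With the shPkm2 label it had 4 and 1 counts. Aff3, Zfp422 and Xlr3a lay at 0.11 to 0.25 TPM there. On a list of 61 homeobox and developmental transcription factors, which holds Lhx9, 35 were tested, with 17 higher and 8 lower in shPkm1 (median log2 0.44) and 18 higher and 8 lower with the shPkm2 label than in shScr. Over all tested genes 31.8% and 31.4% were so called in shPkm1, and 33.9% and 34.2% with the shPkm2 label.

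Plasma, acute phase and antimicrobial proteins numbered 8, with Camp as the 1 that was on with the shPkm2 label. Camp, the cathelicidin peptide precursor, had 0.31 and 0.47 TPM in shScr, 5.90 and 7.72 in shPkm1 and 2.94 and 3.95 with the shPkm2 label. The 3 groups were separate, with 2.65 on the log2 scale over shScr (SE 0.55, edgeR adjusted p 0.000793). The lower level than in shPkm1 was called (log2 -1.05, edgeR adjusted p 0.0177), but not without shPkm1 replicate 2 (log2 -0.81, adjusted p 0.195) or without replicate 1 labelled shPkm2 (log2 -0.82, adjusted p 0.169). The orosomucoids Orm2 and Orm3, transport proteins of acute phase plasma, lie 2942 bases apart on chromosome 4 and averaged 5.65 and 3.04 TPM in shPkm1 and 0.56 and 0.68 with the shPkm2 label. Wfdc21, Serpina3i, Serpina3n, Apoc1 and Rnase10 averaged 2.07 to 4.24 TPM in shPkm1. They lay at 0.12 to 0.38 TPM with the shPkm2 label. Orm2, Orm3, Serpina3i and Serpina3n have near-identical neighbours, and reads may be divided among the copies.

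Cytoskeleton, cilium and organelle proteins numbered 8, and none was on with the shPkm2 label. Avil, an actin-binding protein of the villin family known from sensory neurons, averaged 6.80 TPM in shPkm1 and 0.48 with the shPkm2 label, and its relative Vill 3.06 and 1.29. Reep2, which shapes the endoplasmic reticulum, averaged 6.27 and 0.41 TPM, the lysosomal Cln3 3.61 and 0.38, the ciliary Nphp4 3.29 and 0.58 and the kinesin light chain Klc3 2.83 and 0.77. Cln3 shares 442 exon bases with Apobr on the opposite strand, so its values are uncertain without stranded counting. Apobr had 0.81 and 1.25 TPM in shScr, 4.18 and 3.55 in shPkm1 and 1.23 and 0.83 with the shPkm2 label. Myo18b, a myosin of the muscle sarcomere, had 0.13 and 0.14 TPM in shScr, 2.31 and 2.74 in shPkm1 and 0.01 and 0.01 with the shPkm2 label (lower than shScr, edgeR adjusted p 9.89e-05). Fhdc1, a formin-related protein, averaged 2.01 TPM in shPkm1, the lowest level that met the limit.

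Of the last 9 genes, Lgalsl, a galectin-related protein, went from 0.02 TPM in each shScr library to 4.53 and 4.09 in shPkm1 and 0.41 and 0.27 with the shPkm2 label. The shPkm2-labelled level was above shScr in both libraries (edgeR adjusted p 0.000541). The gene known only by its NCBI number 108167344 was on with both labels, at 3.26 and 2.54 TPM in shPkm1 and 3.65 and 3.95 with the shPkm2 label, and all other genes of the set are protein-coding by the annotation. Gm3776 lies 14445 bases from Gsta1 and 61851 from Gsta2, glutathione transferases that also rose in shPkm1 (log2 3.21 and 3.37, edgeR adjusted p 0.000128 and 9.74e-07) and with the shPkm2 label (log2 3.27 and 2.43, adjusted p 7.53e-05 and 2.26e-05). The estimated counts of Gm3776 were not whole (44.32 in shPkm1 and 25.22 with the shPkm2 label, over both libraries). Part of its reads may thus be shared with other genes. Xkr5, Ccdc166, Gm14308, Klhl33, Ccdc60 and Tmem100 averaged 2.22 to 3.83 TPM in shPkm1 and 0.09 to 0.97 with the shPkm2 label.

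**Figure D2:**
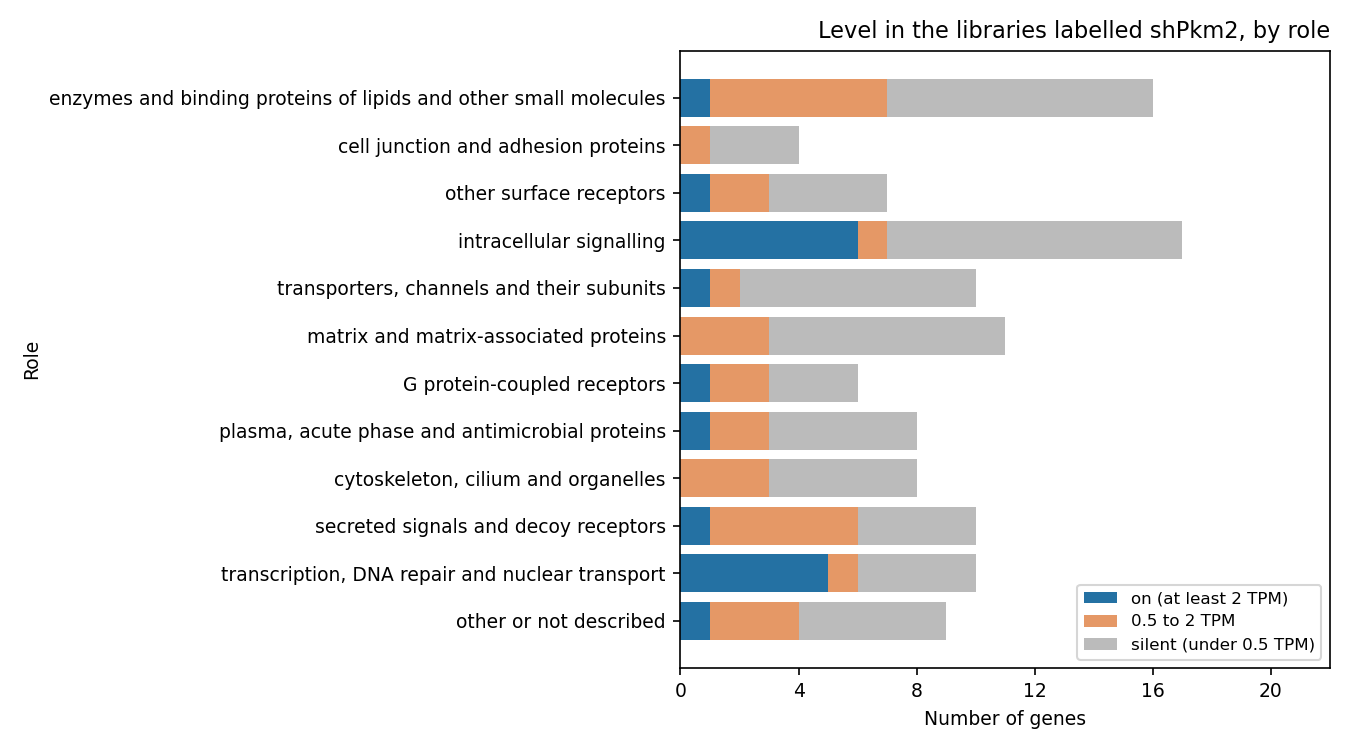
Number of genes (horizontal) in each role (vertical), split by their level in the libraries labelled shPkm2: blue for 2 TPM or more, orange for 0.5 to 2, grey for under 0.5. Blue is longest for intracellular signalling (6 of 17) and transcription, DNA repair and nuclear transport (5 of 10), and absent for matrix (0 of 11), cytoskeleton (0 of 8) and junction proteins (0 of 4).

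The 6 genes called higher with the shPkm2 label than in shPkm1 were Penk, Nr4a2, Lrp8, Rasl11a, Ranbp3l and Brca2, all of them among the 18 on with both labels. The 10 not called between these groups were Plcb1, Slc1a6, 108167344, Chml, Ints6l and Gcnt4, which were on in both, and Gm3776, Tnfsf13, Pthlh and Ereg, which lay between the limits with the shPkm2 label. The remaining 6 of the 18, namely Camp, Lhx9, Ptgfr, Syk, Gprin3 and Rgs4, were called lower with the shPkm2 label. In this comparison 9 genes lost the call without at least 1 library. They include Rasl11a, Ranbp3l and Brca2 among those called higher, and Lhx9, Cyp2j6, Camp, Vill and Rdh12 among those called lower, with edgeR adjusted p up to 0.115, 0.218, 0.195, 0.0594 and 0.0695 for the last 5. Against shScr, 15 of the genes called lost the call without at least 1 library. They were Cdhr1, Ripk3, Lmo1, Mchr1, Pthlh, Tnfsf13 and Gm3776 among those called higher and Plb1, Akip1, Ces2g, Elmo1, Stc1, Gja5, Itga1 and Adgrg2 among those called lower. Their highest edgeR adjusted p without 1 library ran from 0.0713 (Gm3776) to 0.314 (Tnfsf13) among the former and from 0.0616 (Elmo1) to 0.276 (Itga1) among the latter. Another 12 genes gained a call against shScr without 1 library, among them Dpt (log2 -1.59 to -2.27, edgeR adjusted p 0.00212, without shScr replicate 2), and 3 gained one against shPkm1.

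**Figure D3:**
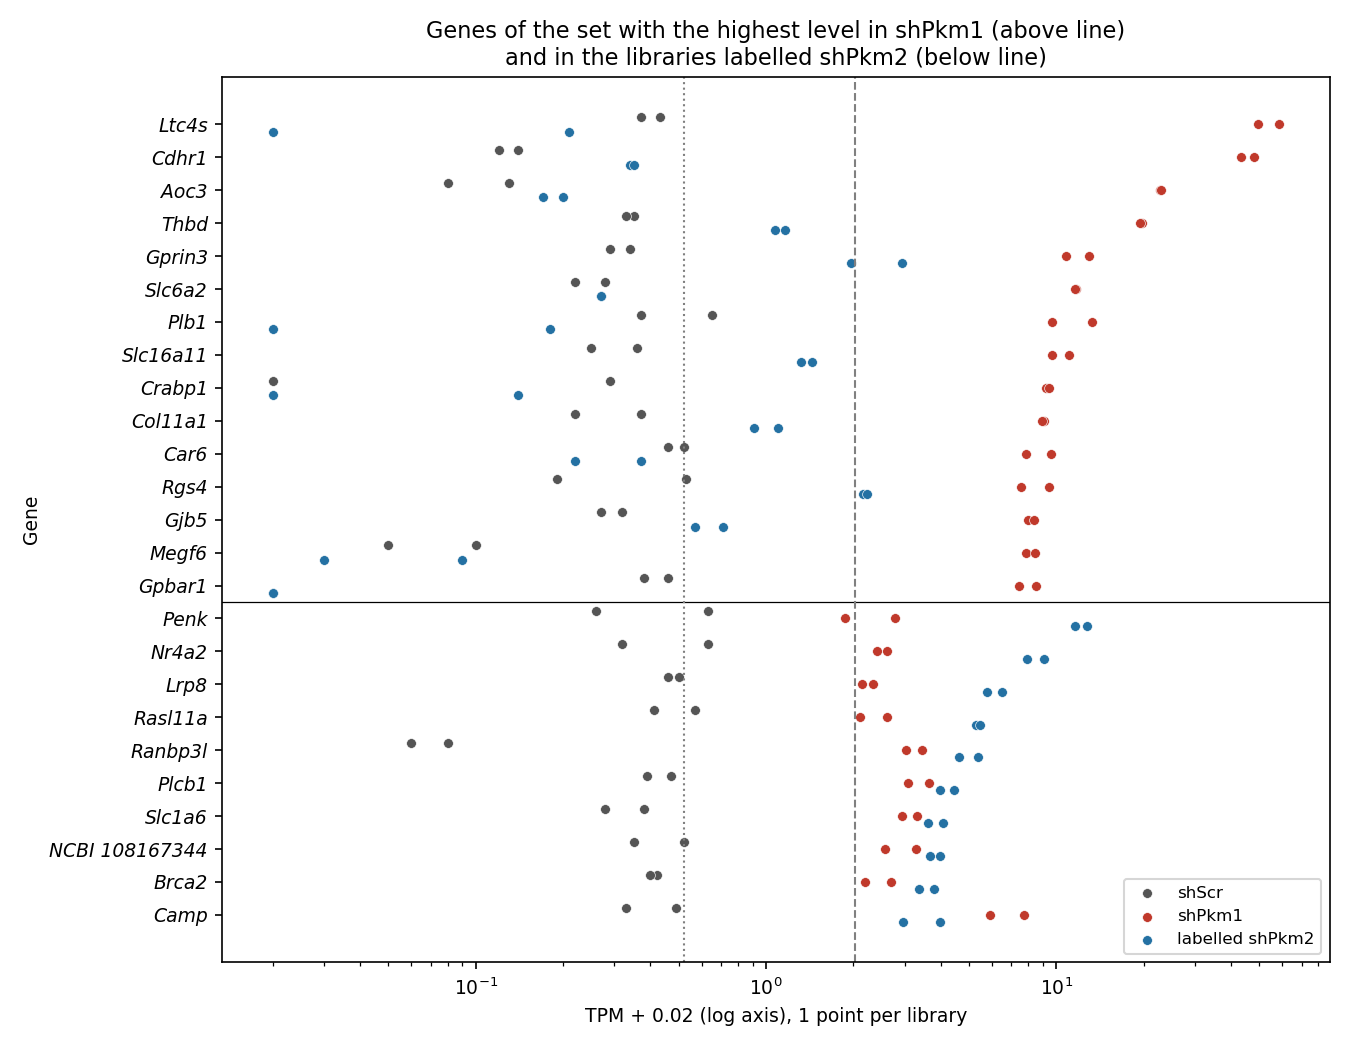
TPM plus 0.02 (log axis) of the 15 genes highest in shPkm1 (above the line) and the 10 highest in the libraries labelled shPkm2 (below the line), 1 point per library; grey is shScr, red shPkm1, blue the libraries labelled shPkm2, and the dotted and dashed lines mark 0.5 and 2 TPM. Above the line red stands alone at the right, from 7.40 TPM upward, and below it blue lies with or to the right of red except for Camp.

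Between the shPkm1 libraries the SD was 9.76% of the mean in the median gene and at most 58%, and 8 genes differed by more than 1.5 times. Silent did not mean unread: 36 genes had 10 or more counts in each shScr library. The limits cut through a continuous range of levels. Just inside the control limit lay Akip1 and Rdh12 at 0.495 TPM and Orm2 at 0.49, and just outside it Fam131c at 0.50 (shPkm1 2.56 TPM) and Clu and Igsf10 at 0.505 (5.94 and 9.06). Just inside the limit in shPkm1 lay Fhdc1 at 2.01, Il1rl1 at 2.04 and Gcnt4 at 2.06 TPM, and just outside it Gm46340 at 1.98, Pdzd7 at 1.97 and Abcb1a at 1.96.

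Markers of other cell types moved with some of the groups described. All 6 tested fibroblast markers of 8 were called higher in shPkm1 than in shScr, beside 31.8% of all tested genes (median log2 2.37, beside 0). Among them is Dpt, which belongs to the set and was chosen by that rise. With the shPkm2 label 2 were called higher and 3 lower than in shScr, beside 33.9% and 34.2%. Thy1 and Lum were not tested and lay at 0.24 TPM or less in every library. Summed TPM of the fibroblast list was 1042 to 1276 in shScr, 5565 to 5756 in shPkm1 and 775 to 899.8 with the shPkm2 label. Col1a1, the main fibrillar collagen, stood at 359 and 362, 2585 and 2552, and 50.5 and 43.2 TPM, and the progenitor marker Cd34 at 4.34 and 4.44, 125 and 106, and 14.62 and 14.96. Of the tendon list 2 of 3 tested were higher and 1 lower in shPkm1, beside 31.8% and 31.4% of all tested genes. Fmod, fibromodulin, went from 19.7 and 16.2 TPM to 511 and 477, and to 4.80 and 3.93 with the shPkm2 label, while the tendon factor Scx fell from 233 and 280 TPM to 167 and 203 (log2 -0.85, edgeR adjusted p 3.37e-05). Tnmd and Thbs4 lay at 0.08 TPM or less in every library. The part of these cell type markers in the levels of the matrix genes of the set was not tested.

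Of 14 photoreceptor markers, Cdhr1 and Rom1 were tested, and Rom1 was not called in shPkm1 (log2 -0.46, edgeR adjusted p 0.257), while Crx, Nrl, Nr2e3 and Prph2 were listed at 0 in all libraries. Endothelial markers summed to 1.16 to 1.57 TPM in shScr and 0.49 to 0.66 in shPkm1, with Tie1 and Emcn at 0 throughout, beside the rise of Thbd and Aoc3. Of the epithelial list Epcam and Krt18 were at 0, and Krt14 had 1.60 and 3.49 TPM in shScr and 28.8 and 35.0 in shPkm1, beside the rise of Gjb5 and Ppl. Neuron markers summed to 73.5 to 102 TPM in shScr, 74.9 to 77.2 in shPkm1 and 580 to 588 with the shPkm2 label, where 6 of 8 tested were higher than in shScr, beside 33.9% of all tested genes. Snap25 and Chga were listed at 0 in all libraries, and Rbfox3, Dcx and Elavl4 at 0.06 TPM or less. Stmn2, a tubulin-binding protein of growing neurites, made up most of that sum, at 434 and 452 TPM with the shPkm2 label beside 40.1 to 42.8 in the other libraries. Some genes of the set are known from neurons, and those given here were picked after their values were seen and are no full list. Penk, Nr4a2, Lrp8 and Slc1a6 were on in the same libraries, while Avil, Slc6a2, Slc6a7, Cacna1g, Mchr1 and Pex5l were silent there. The part of these cell type markers in their levels was not tested.

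**Figure D4:**
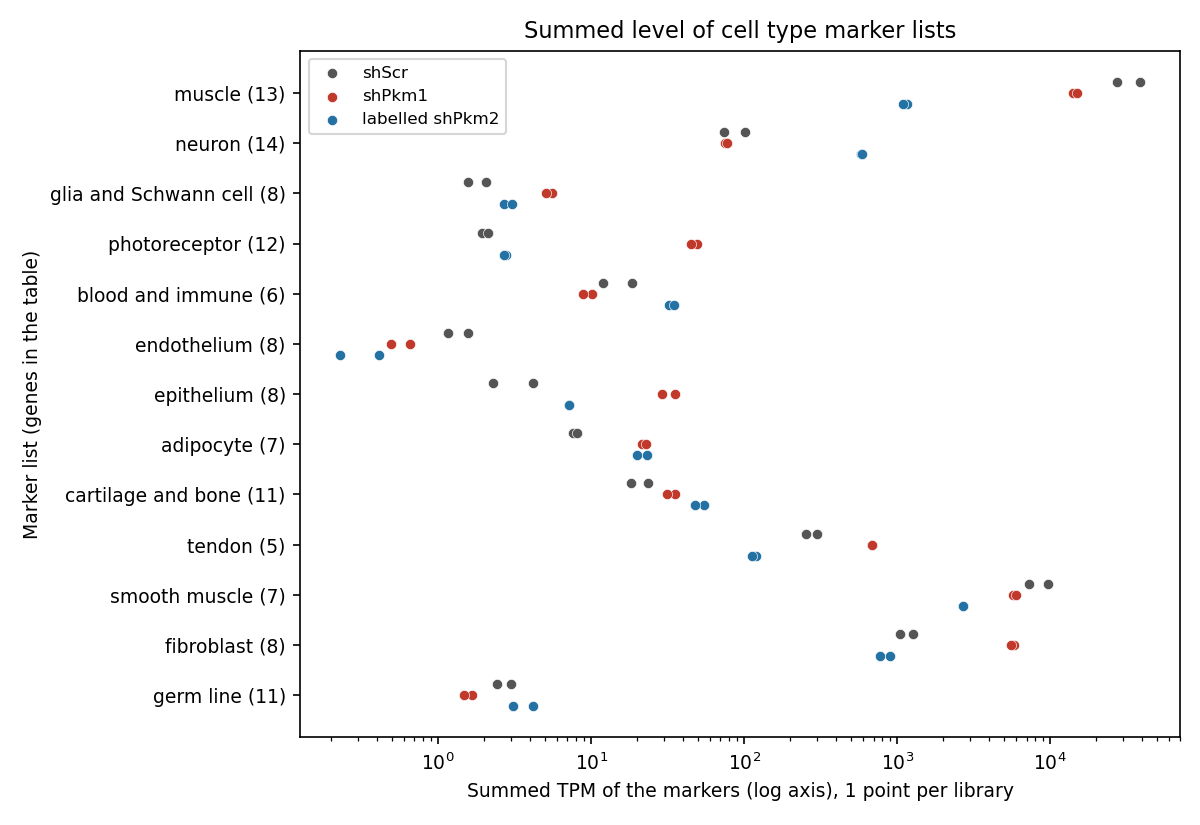
Summed TPM (log axis, 1 point per library) of the marker lists of 13 cell types, with the number of listed genes in the table in brackets; grey is shScr, red shPkm1, blue the libraries labelled shPkm2. Red is highest for fibroblast, tendon, epithelium, glia and photoreceptor lists, the last 4 mainly through Fmod, Krt14, Aldh1l1 and Cdhr1. Blue is highest for neuron, blood and germ line lists, mainly through Stmn2, Hba-a1 and Rhox5, and for the cartilage list. Rhox5 was not called against shScr with the shPkm2 label (edgeR adjusted p 0.557). Muscle falls from grey to red to blue.

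The genes were spread over the genome. Chromosome 4 held 13, or 1.61% of its 808 tested genes, and chromosome 14 held 7, or 1.66% of 422, beside 0.905% of all tested genes with a position. The closest pairs were Orm3 and Orm2 and the overlapping Kcnab2 and Nphp4. Of the 220 nearest tested neighbours that are not in the set, 87 (39.5%) were called higher in shPkm1 than in shScr, beside 31.8% of all tested genes, with a median log2 fold change of 0.21. With the shPkm2 label 84 of them (38.2%) were called higher than in shScr, beside 33.9%, with a median of 0.20. Called lower than in shScr were 54 of the 220 in shPkm1, beside 31.4%, and 62 with the shPkm2 label, beside 34.2%. Within 100000 bases, 49 of 130 neighbours (37.7%) were called higher in shPkm1 and 32 lower, with a median of 0.14. With the shPkm2 label 45 of the 130 (34.6%) were called higher than in shScr and 38 lower, with a median of 0.17. Some close neighbours rose strongly, such as 2610528A11Rik, 3792 bases from Cdhr1, by 5.34 on the log2 scale (edgeR adjusted p 1.01e-09). Others did not: Mgat4b, 1357 bases from Ltc4s, had 0.14 (edgeR adjusted p 0.302) and Aoc2, an amine oxidase gene 798 bases from Aoc3, had -0.50 (adjusted p 0.211). The annotation also limits some values: 11 of the genes have near-identical copies and 10 share exon bases with another gene (Akip1, Avil, Chml, Cln3, Entpd2, Gja5, Klc3, Ptger1, Rhof and Tnfsf13). Without them 95 genes remained, of which 17 were on and 56 silent with the shPkm2 label.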

How the data were processed

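The 116 genes, their roles and the gene lists were chosen with earlier results of these data known, the roles after their levels were seen. Rows of the deposited table are RefSeq transcripts, 57920 in all. Per the file headers, the authors' table gives for each library an estimated count, an FPKM value (scaled by transcript length and library size) and a TPM value. Between 48.0% and 50.7% of the deposited estimated counts per transcript in a library, zeros included, are exactly whole. The deposited FPKM values served only as an alternative unit, and the deposited TPM values chose the genes. The submitters' processing notes name mm10, HISAT, StringTie, Bowtie, RSEM and DESeq2, without roles, and strandedness is not given in the sources used here. The authors' means per group (9 columns) were left aside.

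Values were summed per NCBI gene, and counts were rounded. Symbols matched 17445 of 17558 genes, and the other 113 held at most 0.148% of counts. Genes were tested with edgeR 4.0.16 in R 4.3.3: filterByExpr (minimum count 10, minimum total 15; 12643 genes), TMM scaling, all 6 libraries in 1 quasi-likelihood fit, Benjamini-Hochberg adjustment over all genes tested, threshold 0.05, two-sided. The SE was derived from the log2 fold change and the F statistic. Against a group at 0 a fold is a bound with a floor of 3 counts over the group. With 1 to 3 counts in a group the ratio has an exact 95% binomial interval. Both cover counting error only. Symbols, coordinates and promoters are from RefSeq (GRCm38.p6), and exon overlaps from GENCODE vM21. Alternatives were other limits, units and transcripts, DESeq2 1.42.0, limma 3.58.1 on log2(TPM + 0.5) and log2(TPM + 0.1), other scalings, no filter, only 4 libraries, a replicate block, leave-one-out fits and, added after the data were seen, leaving out genes with near-identical copies or shared exons. Every gene could be named once. Per-library values were fixed for the 15 highest in shPkm1, the 10 highest in shPkm2, the 5 lowest in shPkm2 among the 30 highest in shPkm1, and the 3 nearest each limit. Values of further genes were printed after they were seen. A few genes of the set are counted but not reported by name here.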

Additional observations from a re-analysis of the deposited data

How the results depend on the processing

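The counts depend on the limits. With a control limit of 0.25 or 1 TPM, 51 or 277 genes met the rule, 1 or 88 of them were on and 26 or 121 silent with the shPkm2 label. With an on limit of 1 or 5 TPM the numbers were 293 or 33, with 97 or 0 on and 153 or 23 silent. The count on in both, 18 in TPM, was 4 in FPKM (1 of them among the 18) and 6 in CPM (2 among the 18), units in which 84 and 92 genes met the rule and 51 and 52 of the 116 were kept. It was 9 when every library had to pass, 31 by replicate 1 alone and 28 without shScr replicate 2. Replicate 1 alone gave 145 genes and replicate 2 alone 112, with 84 in common (57.9% and 75.0%). The 14 genes called lower than in shScr were 6 when only the 4 libraries compared were fitted (62 tested, with 37 called higher beside 41 of 115) and 7 with limma on log2(TPM + 0.5). The 6 called higher than in shPkm1 were 3 without shPkm1 replicate 2.

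Leaving out each library in turn gave 113 to 140 genes, 15 to 28 on and 65 to 70 silent with the shPkm2 label. Calls ran from 36 to 39 higher and 11 to 16 lower than in shScr, from 93 to 103 lower and 3 to 6 higher than in shPkm1, and from 113 to 116 higher in shPkm1 than in shScr. A group left with 1 library was assumed to vary like the others. With the replicate number as a block, 40 genes were called higher and 15 lower than in shScr, and 100 lower and 6 higher than in shPkm1. Deviations of same-numbered libraries correlated at -0.03 to 0.05 across genes, so no pairing by number was seen. With 2 libraries per group this cannot exclude a shared culture or preparation. Library totals in place of TMM moved the median of all genes by 0.19 (shPkm1) and 0.32 (shPkm2 label) on the log2 scale against shScr. Over the genes fixed for naming, 1344 fold changes kept their side of the threshold, 24 lost a call, 5 gained one and 0 reversed with a call. A change of sign where neither fit gave a call was not counted as reversed. The total includes the changes of shPkm1 against shScr, whose direction the rule fixed. Plcb1 became higher than in shPkm1 with library totals (0.39, adjusted p 0.0304). With the shPkm2 label against shScr, Ltc4s was called lower and Gjb5 higher in both limma fits (adjusted p 0.01685 and 0.004221 for Ltc4s). With DESeq2 the differences of Ranbp3l and Camp from shPkm1 lost the call (adjusted p 0.0614 and 0.139). The promoter alternative was not run, since too few genes had a window. A level under 0.5 TPM often rests on fewer than 10 counts.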
